A study of Mus musculus with 6 samples.

Results

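Chemokines are small secreted proteins that guide the movement of leukocytes, and they act through receptors of the G protein-coupled family on the cells that move. The genes described here are chemokine ligands and chemokine receptors of the mouse (21 ligands and 16 receptors, with Cxcl10 left out). They were chosen by name, with earlier results of these data known. Of these 37 genes, 36 had a probe set on the arrays, 20 ligands and 16 receptors, of 18784 genes in all, and the ligand gene Ccl28 was not analysed here. Ligands of the CC class fall into inflammatory ones, induced at sites of infection or injury, and homeostatic ones, made steadily in lymphoid or mucosal tissue. In B cells, CXCR4, CXCR5 and CCR7 are best known for holding or drawing the cells to bone marrow, follicles and the T cell zone of lymph nodes, CCR6 is carried by mature B cells, and CCR1 is mainly a receptor of monocytes, macrophages and granulocytes.

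The cells were cultured mouse lymphoma cells of the labelled genotype Arf-/-Eu-myc/Bcl-2, on layers of irradiated Arf-/- embryonic fibroblasts. In the Eu-myc transgene an immunoglobulin heavy chain enhancer drives MYC in B cells, and both groups shared this genotype and the feeder layer. There were 3 arrays of cells transduced with Dhx9.1241, a short hairpin RNA named for the RNA and DNA helicase gene Dhx9, and 3 arrays of cells given Rluc.713, a control hairpin whose name refers to Renilla luciferase. The labels name no drug for these samples, a single hairpin stood for each group, and the labels do not say whether the 3 samples per group were grown separately, so the p-values reflect variation among arrays that could be technical. The question was which chemokine and receptor transcripts differed between the hairpins.

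Values are log2 levels after robust multi-array average (RMA), and a gene was called when the limma test over all genes gave a Benjamini-Hochberg adjusted p under 0.05. The level of Dhx9 itself (probe set 13211_at) was 11.42 ± 0.041 in Dhx9.1241 and 12.42 ± 0.0629 in Rluc.713 (SD, n = 3 each), a log2 change of -0.99 with a limma adjusted p of 0.000129. The titles of the Dhx9.1241 samples name Dhx29, whose log2 change was 0.04 (adjusted p = 0.857), so the groups are called by their hairpins. B cell genes read high on all arrays, with Cd79a at a mean log2 level of 13.74 and Pax5 at 12.37. Of 11 measured B cell markers 1 fell, Vpreb3 (log2 change -0.57), a called share of 9.09%, against 3.14% of all genes. Array Rluc.713 replicate 1 stood apart from the other arrays of its group on the second principal component (16.7, against -4.81 and -5.29). It was the highest of the 6 arrays for 20 of the 36 members (55.6%), for 46.6% of genes below the median level and for 28.8% of all genes. Results are therefore also given without it where that changed a call. Many members read low: 28 of the 36 had a mean below 8.47, the median over all genes, and the deposited values hold no detection calls, so whether a dim gene was expressed was not tested. Values of different probe sets depend on their probes, so a level below that median describes the array signal and does not order transcripts by abundance.

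Of the 20 ligands, 1 rose, 3 fell and 16 did not pass. Of the 16 receptors, 1 rose, 2 fell and 13 did not pass. The 7 called members are 19.4% of those measured, against 3.14% of all genes. The members and the other lists used here were chosen with earlier results of these data known. Their called shares are therefore descriptions only. In Dhx9.1241, Ccr1, Ccr6, Ccl6, Ccl3 and Ccl9 were lower and Ccl5 and Ccr7 were higher. The change was from 1.42-fold to 2.09-fold for those that fell, and 1.37-fold for Ccl5 and 1.18-fold for Ccr7. By direction, 2.07% of all genes were called higher and 1.07% lower. The median log2 change was -0.032 over ligands, -0.0093 over receptors and 0.0049 over all genes, and the median size of the change, without its sign, was 0.053, 0.079 and 0.054. Without Rluc.713 replicate 1 the signed medians were 0.049 over ligands and 0.011 over receptors. Thus 4 of 20 ligands and 3 of 16 receptors were called, with more falls than rises in each set. For receptors, 2 rose and 2 fell in limma fits with array weights or with a variance trend and robust estimation. The difference between ligands and receptors was not tested. Groups did not overlap for 11 of the 36 members (30.6%), against 20.1% of all genes. The plot of changes gives every member with its interval.

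**Figure D1:**
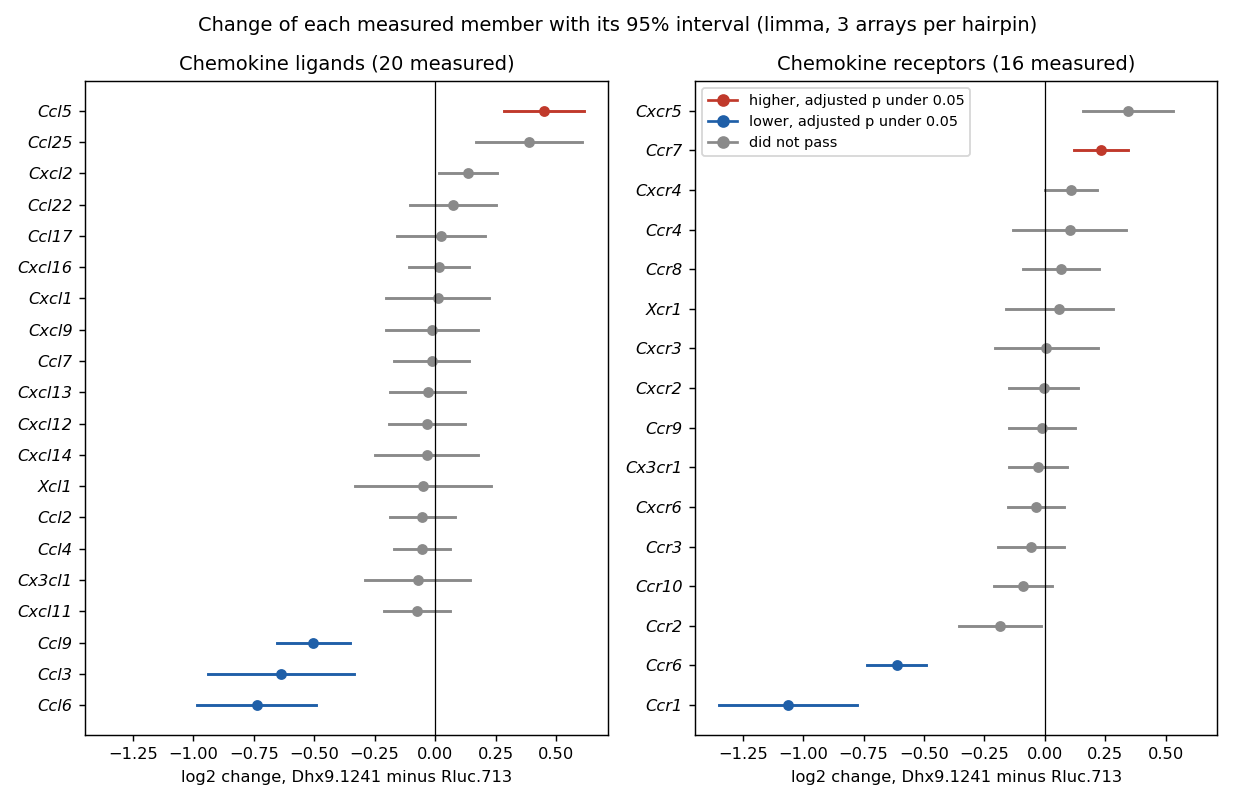
Log2 change of each measured chemokine ligand (left, 20 genes) and receptor (right, 16 genes), Dhx9.1241 minus Rluc.713, with 95% intervals from limma; red marks genes called higher, blue genes called lower and grey genes that did not pass. The change of Ccr1, at -1.06, lies farthest from 0, and 27 of the 29 members that did not pass lie within 0.2 of 0.

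Inflammatory CC ligands held all the ligand calls. Of 12 inflammatory ligands, 1 rose, 3 fell and 8 did not pass (33.3% called, against 3.14% of all genes). The 12 include ligands outside the CC class, such as Cxcl1 and Xcl1. This list and the homeostatic one were chosen with earlier results of these data known, so their difference is a description only. Ccl6, a CC chemokine of mouse macrophages and other myeloid cells that binds CCR1, had the largest change among ligands. Its log2 level (20305_at) was 8.71, 8.43 and 8.77 in Dhx9.1241, against 9.22, 9.36 and 9.55 in Rluc.713. Every Dhx9.1241 array lay below every Rluc.713 array. The means were 8.64 ± 0.18 and 9.38 ± 0.163 (SD, n = 3 each), so that the level was 1.67-fold lower. The log2 change was -0.74, with a 95% interval from -0.98 to -0.49 around it (SE 0.107), and limma's adjusted p was 0.01.

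Ccl9, another mouse ligand of CCR1 that draws myeloid cells, also fell. Its log2 level (20308_at) was 8.63, 8.46 and 8.60 in Dhx9.1241, against 9.03, 9.17 and 9.01 in Rluc.713. The groups did not overlap, and the spread within each was small beside the gap between them. The means were 8.57 ± 0.0892 and 9.07 ± 0.0845 (SD, n = 3 each), and the log2 change, -0.50, had an interval from -0.66 to -0.35 (SE 0.0658) and an adjusted p of 0.00639 in limma. Ccl6 and Ccl9 passed under all 15 alternatives, with adjusted p of 0.000912 to 0.0429 and 0.00158 to 0.0383.

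Ccl3, a ligand of CCR1 that macrophages and activated lymphocytes secrete, fell with the widest spread of these ligands in Dhx9.1241. Its log2 level (20302_at) was 10.30, 10.67 and 10.18 in Dhx9.1241, against 11.08, 11.16 and 10.83 in Rluc.713. The groups did not overlap, but Dhx9.1241 replicate 2 came close to the lowest Rluc.713 array. The means were 10.38 ± 0.257 and 11.02 ± 0.172 (SD, n = 3 each), and the log2 change, -0.64, had an interval from -0.94 to -0.34 (SE 0.132) and an adjusted p of 0.043 in limma. The call rested on all arrays but Dhx9.1241 replicate 2: adjusted p was 0.0567 without Rluc.713 replicate 1, 0.141 without replicate 2 and 0.051 without replicate 3, 0.178 without Dhx9.1241 replicate 1 and 0.153 without replicate 3. It was 0.0158 without Dhx9.1241 replicate 2.

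Ccl5, a ligand of CCR1 and other receptors that T cells and NK cells make and that inflammatory signals induce in many cells, was the 1 ligand that rose. Its log2 level (20304_at) was 9.87, 9.94 and 9.96 in Dhx9.1241, against 9.32, 9.55 and 9.55 in Rluc.713. The Dhx9.1241 arrays lay close together and above all Rluc.713 arrays, of which replicate 1 was the lowest. The means were 9.92 ± 0.0499 and 9.47 ± 0.134 (SD, n = 3 each), and the log2 change, 0.45, had an interval from 0.29 to 0.62 (SE 0.072) and an adjusted p of 0.0154 in limma. Without Dhx9.1241 replicate 1, 2 or 3 the adjusted p was 0.0564, 0.0657 and 0.0849. Without Rluc.713 replicate 1 the log2 change was 0.37 and passed. Of 13 measured T and NK cell markers none passed in limma. Before adjustment, 1 was higher and 0 were lower with a p under 0.05. Their summed log2 level was 95.24 to 95.84 in Dhx9.1241 and 94.76 to 96.46 in Rluc.713, so that the groups overlapped. Of the 13 markers, 0 had a mean above the median over all genes, and the highest mean was 8.29. The part of T and NK cells in the rise of Ccl5 was not tested.

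**Figure D2:**
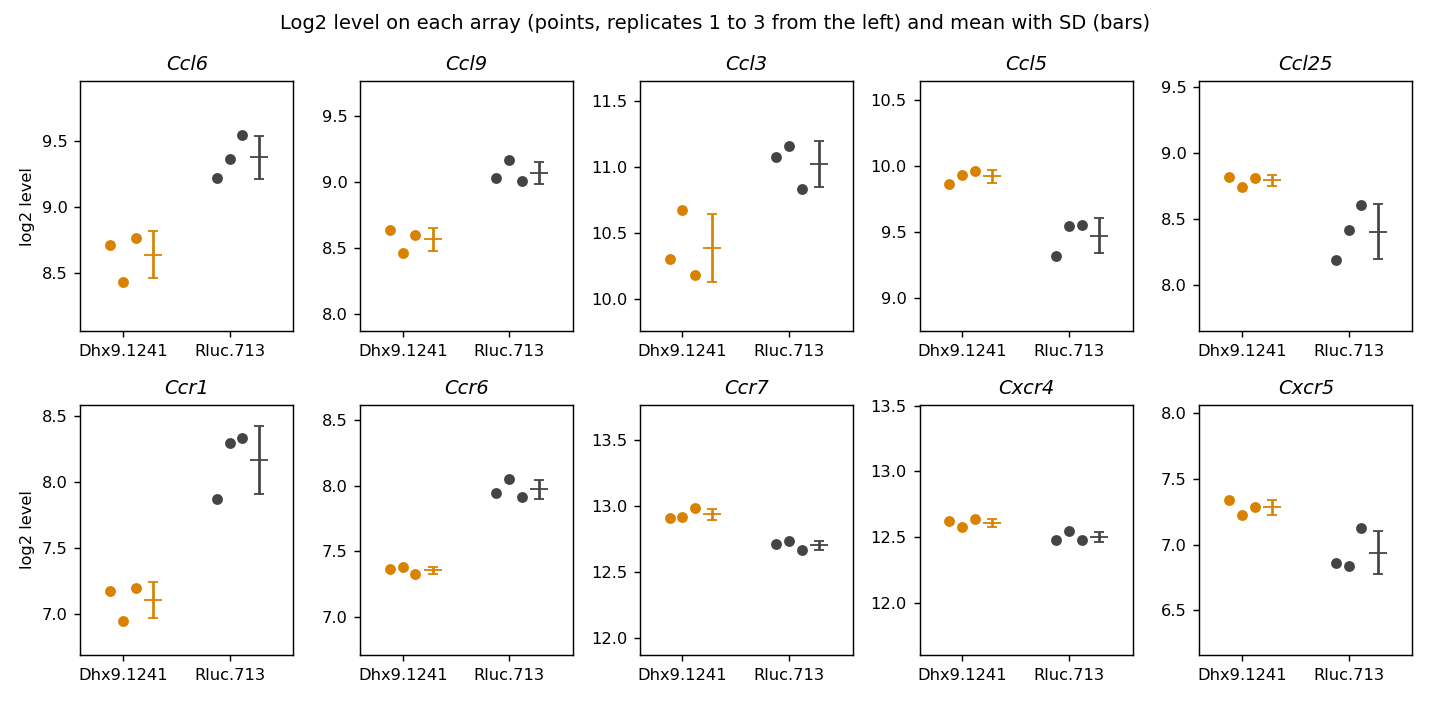
Log2 level of 5 ligand genes (top) and 5 receptor genes (bottom) on each of the 3 Dhx9.1241 arrays (left in each panel) and 3 Rluc.713 arrays (right), with points for arrays and bars for the mean and SD; every panel spans the same range of log2 units. Ccl6, Ccl9, Ccl3, Ccr1 and Ccr6 lie lower on all Dhx9.1241 arrays than on any Rluc.713 array, and Ccl5, Ccl25, Ccr7, Cxcr4 and Cxcr5 lie higher.

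These 4 ligand genes are neighbours. In the RefSeq annotation of GRCm38.p6, used here for gene order, chromosome 11 carries Ccl5, Ccl9, Ccl6, Ccl3 and Ccl4 as consecutive protein-coding genes. Along this run the log2 changes were 0.45, -0.50, -0.74, -0.64 and -0.05, so that 4 of 5 were called, in both directions. Ccl4, a ligand of myeloid cells and lymphocytes, did not pass: its log2 level (20303_at) was 7.41, 7.49 and 7.40 in Dhx9.1241, against 7.52, 7.49 and 7.44 in Rluc.713, and the groups overlapped. The spans of Ccl3 and Ccl4 overlap in that annotation. The protein-coding genes at either side of the run, Heatr9 (0.01) and Wfdc17 (-0.23, adjusted p = 0.2), did not pass. In the other CC ligand run on the same chromosome, Ccl2, Ccl7, Ccl11, Ccl12, Ccl8 and Ccl1 had log2 changes between -0.06 and 0.02, and none passed.

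**Figure D3:**
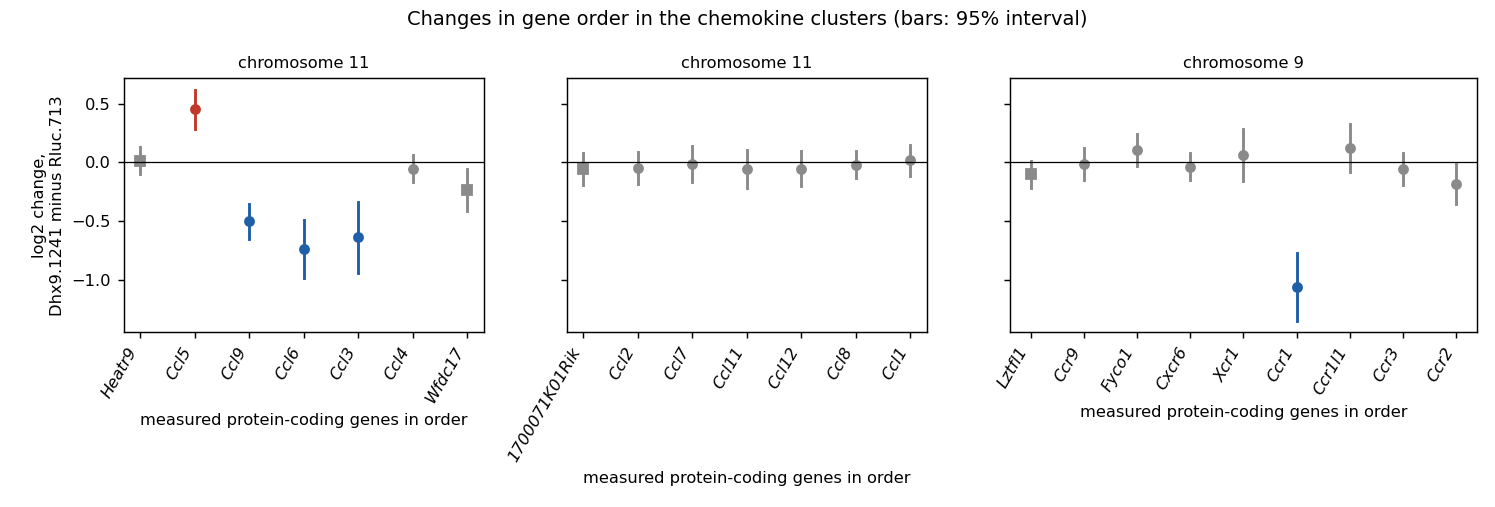
Log2 change, Dhx9.1241 minus Rluc.713, of measured protein-coding genes in chromosomal order through 3 chemokine clusters, with 95% intervals; circles are genes within a cluster, squares the flanking genes, and colours mark calls as red for higher and blue for lower. Changed genes lie side by side from Ccl5 to Ccl3, none of the Ccl2 to Ccl1 run passed, and no measured neighbour of Ccr1 passed.

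Promoter windows of the 3 neighbouring ligands that fell, and of Ccr1, are shown because CCR1 binds these ligands and all 4 genes fell. Each is the 250 bases before the annotated start in RefSeq GRCm38.p6, read 5′ to 3′ on the gene's strand. Capitals mark matches on either strand to any of 4 motifs, chosen with these windows in view. The TATA box was searched as TATAAA. For ETS family factors, among them PU.1 of myeloid and B cells, a single form of the site was searched, GGAAGT. Other forms were not searched, so a window without GGAAGT may still hold a site of these factors. The motif of AP-1 factors was searched as TGANTCA, and the E-box of MYC as CACGTG. Of the 7 called members 5 had a window in the table, and Ccl5 and Ccr7 are named only. Ccr6, which also fell, had 2 windows, not printed here, of which 1 held the GGAAGT motif, on the reverse strand 224 bases before the start.
Ccl9 promoter, chr11:83578637-83578886, - strand: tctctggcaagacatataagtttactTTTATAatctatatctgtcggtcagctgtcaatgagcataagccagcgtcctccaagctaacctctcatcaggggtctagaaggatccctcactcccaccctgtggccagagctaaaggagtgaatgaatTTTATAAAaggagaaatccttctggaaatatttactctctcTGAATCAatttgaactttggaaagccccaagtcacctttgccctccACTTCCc
Ccl6 promoter, chr11:83593088-83593337, - strand: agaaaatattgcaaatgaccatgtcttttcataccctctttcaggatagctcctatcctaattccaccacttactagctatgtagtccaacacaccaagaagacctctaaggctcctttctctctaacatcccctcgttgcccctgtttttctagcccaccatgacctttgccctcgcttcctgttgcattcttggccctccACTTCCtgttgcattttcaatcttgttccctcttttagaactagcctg
Ccl3 promoter, chr11:83649379-83649628, - strand: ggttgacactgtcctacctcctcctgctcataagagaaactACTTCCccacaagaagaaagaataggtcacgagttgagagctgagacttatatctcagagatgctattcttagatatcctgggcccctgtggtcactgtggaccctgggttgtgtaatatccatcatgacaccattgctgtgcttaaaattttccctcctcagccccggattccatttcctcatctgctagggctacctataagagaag
Ccr1 promoter, chr9:123968693-123968942, - strand: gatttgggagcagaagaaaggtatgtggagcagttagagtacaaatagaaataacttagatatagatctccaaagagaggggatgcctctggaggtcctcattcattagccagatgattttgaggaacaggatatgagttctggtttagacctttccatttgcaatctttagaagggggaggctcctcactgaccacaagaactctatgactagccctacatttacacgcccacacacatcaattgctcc
The GGAAGT motif was found in the windows of Ccl9, Ccl6 and Ccl3, each on the reverse strand, starting at 7, 48 and 209 bases before the annotated start, and not in that of Ccr1. It was found in 19.7% of all 32817 windows. Ccl9 also held the TATA box motif, which 12.4% of all windows hold, at overlapping places on both strands and again farther upstream. The AP-1 motif, in 6.75% of all windows, lay 53 bases before the start of Ccl9 and was in none of the other windows shown. The E-box motif, in 6.02% of all windows, was in none of these 4. The best local alignment of the Ccl9 and Ccl6 windows matched 16 of 17 bases, in a stretch that ended with the GGAAGT motif. These matches describe the letters only.

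The other 8 measured inflammatory ligands did not pass. Ccl2 (-0.05) and Ccl7 (-0.01), which attract monocytes, and the neutrophil attractants Cxcl1 (0.01) and Cxcl2 (0.13) had small log2 changes. Cxcl2 (20310_at) read 6.83, 6.75 and 6.77 in Dhx9.1241, against 6.70, 6.66 and 6.59 in Rluc.713, without overlap but with an adjusted p of 0.274. Cxcl9 and Cxcl11, ligands of CXCR3 that interferon induces, had log2 changes of -0.01 (interval -0.21 to 0.18) and -0.08 (interval -0.21 to 0.06). Cxcl11, the ligand with the most negative change among those that did not pass, read 6.92, 6.94 and 6.82 in Dhx9.1241 (56066_at), against values between 6.88 and 7.03 in Rluc.713. The groups overlapped, and the RefSeq annotation of this C57BL/6J assembly lists Cxcl11 as a transcribed pseudogene. Xcl1, a ligand of XCR1 on dendritic cells, stood at -0.05, with a wide interval of -0.33 to 0.23.

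None of the 8 measured homeostatic or dual ligands passed in limma, where 3.14% of all genes were called. Before adjustment, 1 was higher and 0 were lower with a p under 0.05. That gene was Ccl25, the ligand of CCR9 in thymus and gut. Its log2 level (20300_at) was 8.82, 8.74 and 8.81 in Dhx9.1241, against 8.19, 8.41 and 8.61 in Rluc.713. The Dhx9.1241 arrays agreed closely, the Rluc.713 arrays were spread, and the groups did not overlap. The log2 change was 0.39 (interval 0.17 to 0.61, adjusted p = 0.0789), and it was 0.49 and passed without Rluc.713 replicate 3 (adjusted p = 0.0314). The lymphoid ligands Cxcl12 of CXCR4 (-0.03, interval -0.19 to 0.12) and Cxcl13 of CXCR5 (-0.03, interval -0.19 to 0.13) had small changes. So did Ccl17 (0.02) and Ccl22 (0.07) of CCR4, Cxcl14 (-0.03), and the membrane-anchored ligands Cxcl16 (0.02) and Cx3cl1 (-0.07).

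Among receptors, Ccr1 changed most. Its log2 level (12768_at) was 7.17, 6.95 and 7.20 in Dhx9.1241, against 7.88, 8.30 and 8.34 in Rluc.713. All Dhx9.1241 arrays lay well below the lowest Rluc.713 array, replicate 1. The means were 7.11 ± 0.138 and 8.17 ± 0.256 (SD, n = 3 each), so that the level was 2.09-fold lower. The log2 change, -1.06, had an interval from -1.35 to -0.78 (SE 0.125) and an adjusted p of 0.004 in limma. On chromosome 9 its measured neighbours Ccr9, Cxcr6, Xcr1, Ccr1l1, Ccr3 and Ccr2 had log2 changes from -0.18 to 0.12, and none passed. Ccr1 passed whichever of the 6 arrays was left out (adjusted p 0.000338 to 0.0256).

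Ccr6, the receptor for Ccl20 on mature B cells, some T cells and dendritic cells, fell with the smallest adjusted p of the members. Its log2 level (12458_at) was 7.36, 7.38 and 7.33 in Dhx9.1241, against 7.95, 8.05 and 7.91 in Rluc.713. The arrays of each group lay close together, far from those of the other. The means were 7.36 ± 0.0272 and 7.97 ± 0.0715 (SD, n = 3 each), and the log2 change, -0.61, had an interval from -0.73 to -0.49 (SE 0.0533) and an adjusted p of 0.00108 in limma. It passed whichever array was left out (0.00117 to 0.0133). Its ligand gene Ccl20 had a log2 change of -0.15 (interval -0.33 to 0.02) and did not pass.

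Ccr7, which draws B and T cells to the T cell zone, rose by a small amount. Its log2 level (12775_at) was 12.91, 12.91 and 12.98 in Dhx9.1241, against 12.71, 12.73 and 12.67 in Rluc.713. The groups did not overlap and both were tight. The means were 12.94 ± 0.0419 and 12.70 ± 0.0342 (SD, n = 3 each), and the log2 change, 0.23, had an interval from 0.12 to 0.34 (SE 0.0486) and an adjusted p of 0.0452 in limma. The call was kept without Rluc.713 replicate 1 (adjusted p = 0.0411) and lost without Rluc.713 replicate 2 (0.115) or 3 (0.155) and without Dhx9.1241 replicate 1 (0.141), 2 (0.142) or 3 (0.173). It was also lost after median centring of the arrays (log2 change 0.21, adjusted p = 0.148) and in the fit with a replicate block (0.167).

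The other receptors that place B cells did not pass. Cxcr4, the receptor of Cxcl12, had log2 levels (12767_at) of 12.62, 12.58 and 12.63 in Dhx9.1241, against 12.48, 12.55 and 12.48 in Rluc.713, without overlap. Its log2 change was 0.11 (SE 0.0477, adjusted p = 0.361). Cxcr5, the follicle receptor for Cxcl13, had log2 levels (12145_at) of 7.34, 7.23 and 7.29 in Dhx9.1241, against 6.86, 6.84 and 7.12 in Rluc.713. Its groups did not overlap either, and the log2 change was 0.34 (interval 0.16 to 0.53, adjusted p = 0.0667). Without Rluc.713 replicate 3, the highest of its group, it was 0.44 and passed (adjusted p = 0.0195). Of 7 receptors known from B cells, 1 rose and 1 fell (28.6% called, against 3.14% of all genes), and 5 did not pass. Those were Cxcr4 and Cxcr5 with Ccr9 (-0.01), Ccr10 (-0.09) and Cxcr3 (0.01).

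Of 6 receptors of myeloid cells, Ccr1 was the 1 that fell (16.7% called, against 3.14% of all genes), and the other 5 did not pass. Ccr2, the monocyte receptor for Ccl2, had log2 levels (12772_at) of 6.32, 6.08 and 6.08 in Dhx9.1241, against 6.35, 6.29 and 6.39 in Rluc.713, with overlap through Dhx9.1241 replicate 1. Its log2 change was -0.18 (interval -0.35 to -0.01, adjusted p = 0.302). Cx3cr1, the receptor of Cx3cl1 on monocytes and microglia, had log2 levels (13051_at) of 8.50, 8.41 and 8.51 in Dhx9.1241, against 8.53, 8.52 and 8.45 in Rluc.713. These overlapped, with a log2 change of -0.03. The eosinophil receptor Ccr3 (-0.06), the neutrophil receptor Cxcr2 (-0.01) and the dendritic cell receptor Xcr1 (0.06) had small changes. None of the 3 receptors of T cells passed in limma, and 0 were at an unadjusted p under 0.05: Ccr4 stood at 0.10, Ccr8 at 0.07 and Cxcr6 at -0.04.

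Set beside its ligands, Ccr1 and the genes of 3 of its mouse ligands fell (Ccl6, Ccl9 and Ccl3), that of Ccl5 rose, and that of Ccl7 did not pass. For the pairs Cxcl12 and Cxcr4, Cxcl13 and Cxcr5, Ccl25 and Ccr9, Cxcl16 and Cxcr6, Cx3cl1 and Cx3cr1, and Xcl1 and Xcr1, neither ligand nor receptor passed. Ccl17, Ccl22 and their receptor Ccr4 did not pass, nor did Ccl2 and Ccr2.

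Ccr1, Ccl6 and Ccl9 are genes of myeloid cells, and some myeloid markers were lower in the same arrays. Of 17 measured myeloid markers 4 fell, none rose and 13 did not pass (23.5% called, against 3.14% of all genes). The lysozyme gene Lyz2 had log2 levels of 9.42, 9.23 and 9.39 in Dhx9.1241, against 10.64, 10.75 and 10.60 in Rluc.713, a log2 change of -1.31. The colony-stimulating factor receptor gene Csf1r (-0.45) and the adaptor genes Tyrobp (-0.37) and Fcer1g (-0.32) fell too. Lyz2 and Tyrobp passed whichever array was left out. Csf1r passed without Rluc.713 replicate 1 or 3 only, with adjusted p of 0.06 to 0.0863 without any other array, and Fcer1g without Rluc.713 replicate 1 only (0.071 to 0.114 without the others). The markers Adgre1 (-0.01), Mrc1 (0.04) and Itgam (0.21) did not pass, nor did Csf3r and Marco. Of the 17 markers, 15 had a negative log2 change and 2, Mrc1 and Itgam, a positive one. Over all genes, 8924 of 18784 changes were negative. At an unadjusted limma p under 0.05, 6 markers were lower and 1 was higher, against 1058 and 1597 of all genes. Summed over the list, the log2 level was 135.86 to 136.45 in Dhx9.1241 and 138.75 to 139.58 in Rluc.713. The part of myeloid cells in the falls of Ccr1, Ccl6, Ccl9 and Ccl3 was not tested, and in such bulk samples fewer cells of a type and less RNA per cell cannot be told apart.

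**Figure D4:**
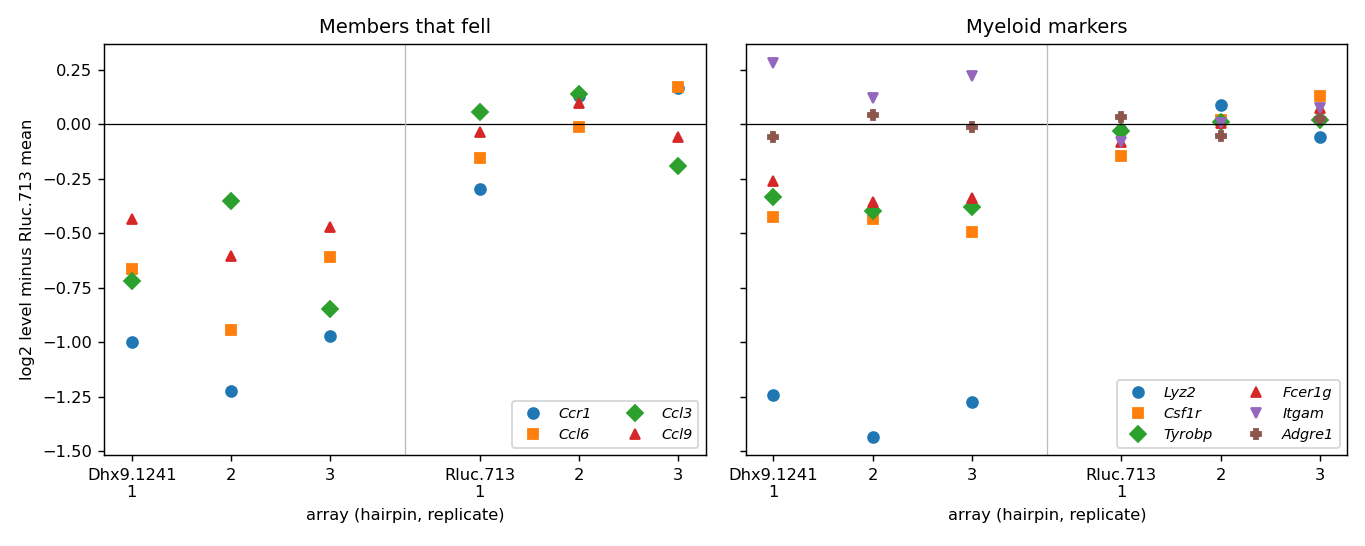
Log2 level on each array minus the Rluc.713 mean of the gene, for Ccr1 and the 3 ligand genes that fell (left) and for 6 of the 17 measured myeloid markers (right: the 4 that fell, with Itgam and Adgre1). Lyz2 and Ccr1 are lowest on the Dhx9.1241 arrays, while Adgre1 lies near 0 and Itgam above 0 on the same arrays. Of the 17 markers, 15 had a negative log2 change and 2 a positive one.

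Of 9 dendritic cell markers, 1 rose, Flt3 (log2 change 0.45), a receptor also carried by early B lineage cells, and 8 did not pass. The called share was 11.1%, against 3.14% of all genes. The summed log2 level of the 9 dendritic cell markers was 77.24 to 77.90 in Dhx9.1241 and 76.25 to 77.08 in Rluc.713. The feeder layer was of fibroblasts, and of 16 measured fibroblast markers 1 fell (6.25%, against 3.14% of all genes called). That gene, Cav1 (-0.25), passed in none of the limma fits without 1 array (adjusted p 0.0543 to 0.19). The fibroblast sums were 132.79 to 133.10 in Dhx9.1241 and 132.71 to 135.22 in Rluc.713, and those of the 11 B cell markers 130.70 to 131.46 and 131.47 to 132.56. The part of these cell types in the members' changes was not tested.

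Further genes related to the family and its signalling were examined in lists chosen with earlier results of these data known. Of 22 measured genes for other chemokines, atypical receptors and CMTM proteins, of 25 listed, 1 rose, 2 fell and 19 did not pass. The called share was 13.6%, against 3.14% of all genes. Ccrl2, an atypical receptor that binds chemerin, had log2 levels (54199_at) of 8.49, 8.41 and 8.32 in Dhx9.1241, against 8.08, 8.06 and 8.16 in Rluc.713, a log2 change of 0.31 (adjusted p = 0.0335). Cmtm6, which stabilises PD-L1 at the cell surface, had log2 levels (67213_at) of 9.94, 9.88 and 9.80 in Dhx9.1241, against 10.17, 10.19 and 10.22 in Rluc.713 (log2 change -0.32, adjusted p = 0.0167). Cmtm3 fell by 0.30 on the log2 scale (adjusted p = 0.0485). In each of the 3 genes the groups did not overlap. The scavenging receptors Ackr1 (0.06), Ackr2 (-0.03), Ackr3 (-0.02) and Ackr4 (0.03) did not pass.

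Of 33 measured genes of signalling downstream of the receptors, of 37 listed, 1 rose and 32 did not pass. The called share, 3.03%, was near the 3.14% of all genes. Gng12, a G protein gamma subunit, had log2 levels (14701_at) of 10.95, 10.90 and 10.82 in Dhx9.1241, against 10.68, 10.60 and 10.61 in Rluc.713, a log2 change of 0.26 (adjusted p = 0.0444). Groups did not overlap for 15 of the 33 genes (45.5%, against 20.1% of all genes), 3 higher and 12 lower. Over all genes, 11.6% were apart and higher and 8.51% apart and lower. The largest changes that did not pass in limma were those of Ptk2b (0.24, adjusted p = 0.0602) and Was (-0.23, adjusted p = 0.105). The list's median log2 change was -0.057, against 0.0049 over all genes. Its main inhibitory G protein gene Gnai2 (-0.08), the PI 3-kinase gene Pik3cg (-0.15) and the Rac activator gene Dock2 (0.07) did not pass. Nor did Rac2 (-0.13) and the arrestin gene Arrb2 (0.02). These calls were lost when most single arrays were left out. Ccrl2 and Gng12 were kept without Rluc.713 replicate 1 only (adjusted p 0.0578 to 0.144 and 0.0804 to 0.188 without any other array). Cmtm6 was kept without that array or Dhx9.1241 replicate 1 (0.069 to 0.0797 without the others), and Cmtm3 in none of these fits (0.053 to 0.174).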

How the data were processed

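RNA of 6 samples was measured on Affymetrix arrays after 3′ in vitro transcription labelling, per the labels' protocols. Deposited values were log2 levels made by the authors with RMA, per the submitters' processing notes. RMA normalizes arrays to each other and tends to compress changes of dim genes. Its version, chip definition and genome build were not given in the sources used here. Of 21212 probe sets, 18786 had 1 gene symbol, 6 had several and 2420 are unnamed here. Symbols were updated by Entrez number (18775 matched) from RefSeq for GRCm38.p6. For 2 genes with several probe sets the brightest was used, leaving 18784 genes, with no filter.

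Dhx9.1241 minus Rluc.713 was fitted with limma 3.58.1 (lmFit, eBayes) in R 4.3.3, two-sided, without covariates; the fit was checked on simulated data. With 3 arrays per group, their number limits precision. Promoter windows were aligned with Biopython 1.88. Members and lists were chosen with earlier results of these data known. Fully described genes were all called members, the 3 ligands and 3 receptors of highest mean level, and in each class and direction the one with the largest change that did not pass, with Ccl4 and Cxcl2 added after their values were seen. Alternatives covered probe set averaging, dim-gene filters, normalization, variance model, array weights, the replicate block and leaving out each array; cyclic loess was added after seeing the data.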

Additional observations from a re-analysis of the deposited data

How the results depend on the processing

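Of 499 values of the 36 members under 15 alternatives, 477 kept their side of the threshold, 15 lost a call, 7 gained one and none of the called ones changed sign. Ccl6, Ccl9, Ccr1 and Ccr6 passed under every alternative that held them. With genes at or above the median level only, 609 genes were higher and 382 lower, and 2 ligands were higher. Ccl25 was the ligand gained, with its log2 change of 0.39 unchanged and an adjusted p of 0.0355 in limma, against 0.0789. In that fit 0 receptors were lower and the ligand median was -0.50, because most members, Ccr1 and Ccr6 among them, are dimmer than the median level. With a variance trend and robust estimation, 673 genes were higher and 466 lower, and 2 ligands and 2 receptors were higher. Array weights gave 669 and 542, also with 2 ligands and 2 receptors higher, and turned the ligand median to 0.04. With each array centred on its median, 250 genes and 0 receptors were higher. Quantile normalization again gave 360 genes lower and cyclic loess 345. With 1 array left out, 126 to 497 genes were higher and 70 to 399 lower, with 0 to 2 ligands and 0 to 1 receptors higher, 2 to 3 ligands lower and 2 receptors lower; all but the fit without Rluc.713 replicate 1 gave fewer calls than the full set, and fewer arrays lower the power. With the replicate block, 172 genes were higher, 92 lower and 0 receptors higher. Deviations of same-numbered arrays correlated at -0.27, -0.34 and 0.24, and those of differently numbered arrays at -0.37 to 0.48. With 3 arrays per group the deviations depend on each other, so these values cannot decide whether the numbers pair the arrays. The causes of the other differences between settings were not tested.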

Other observations

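Within groups, the members varied less in Dhx9.1241 than in Rluc.713: the median SD over the 36 members was 0.0565 in Dhx9.1241 and 0.11 in Rluc.713. Over all genes these medians were 0.0587 and 0.0792, and over genes below the median level, as 28 of the 36 members are, 0.0683 and 0.095. Rluc.713 replicate 1 was the highest array for 20 of the 36 members; its part in the spread was not tested. Across the 27 measured members with a promoter window, 12 of 29 windows held the GGAAGT motif (41.4%, against 19.7% of all windows). The TATA box motif was in 7 (24.1%, against 12.4%), the AP-1 motif in 3 (10.3%, against 6.75%) and the E-box motif in 1 (3.45%, against 6.02%). The motifs were chosen with the printed windows in view, and those windows are among the 29. These shares therefore depend on that choice, and are given as a description of the letters with no test.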
